A study of Mus musculus with 8 samples.

Results

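The 9 transcription factors described here are Nr1h3, Nr1h2, Spic, Id3, Id1, Zeb2, Spi1, Maf and Cebpb, regulators of macrophage and Kupffer cell identity. They were taken by gene symbol from a table of 56691 genes, in which each symbol had 1 entry, and all 9 were among the 15870 genes that passed the filter on low counts. RNA was measured by bulk RNA-seq in Kupffer cells, which are the liver's own macrophages, from mice lacking Vsig4 (Vsig4-/-, KO, 4 libraries) and from wild-type mice (WT, 4 libraries). All mice carried liver metastases of B16F10, a mouse melanoma line, and cells were taken 7 days after B16F10 injection, so neither genotype has a tumour-free control. Sorting kept DAPI-negative, CD45+ and Tim-4+ cells. Vsig4, which encodes a complement receptor of tissue macrophages, was deficient in the mouse and not only in the sorted cells. The sources used here do not give age, sex, strain background or pooling of animals, and libraries are called by genotype and by the number in their title. Nothing in the labels says that libraries came from separate animals, so p-values cover the spread among these libraries, which may be technical.

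Kupffer cell identity is built by factors in layers. PU.1 and C/EBP proteins open and maintain macrophage enhancers, and the liver niche adds signals such as oxysterols, which activate LXR receptors, and BMP and TGF-beta ligands, whose SMAD proteins induce ID genes. In mouse Kupffer cells LXRα and ID3 are known to be required for the mature cell, and ZEB2 to maintain its identity together with LXRα. SPI-C is known from heme and iron handling in mouse macrophages.

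Libraries held 15264043 to 19513844 counts and 22323 to 23483 genes with at least 1 count. Vsig4 had 9, 6, 2 and 4 counts in KO 1 to 4, against 40604, 46735, 22498 and 25498 counts in WT 1 to 4 (edgeR log2 fold change -12.85 ± 0.531 SE, adjusted p = 5.35e-05). The defining Kupffer transcripts were abundant: Clec4f, a Kupffer cell lectin, averaged 2218 ± 849 FPKM in KO and 3383 ± 779 FPKM in WT (SD, n = 4 each). FPKM is the authors' count scaled to the exonic length of a gene and to the total of its library. The 10 Kupffer effector markers summed to 20091, 19841, 6330 and 15195 CPM (counts scaled to library size, with TMM factors) in KO 1 to 4, against 29561, 29553, 16579 and 19053 CPM in WT 1 to 4. Melanoma RNA was in every library, with the 10 melanoma markers summing to 2377, 3394, 12085 and 6293 CPM in KO 1 to 4, against 475, 405, 5370 and 4593 CPM in WT 1 to 4, and no marker of either list was at 0 in all libraries. KO 3 had the highest melanoma sum and the lowest Kupffer sum of the 8 libraries.

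Every one of the 9 factors was clearly expressed in both genotypes, and by TMM-scaled CPM every one had its lower value in KO in all 4 pairs of libraries with the same number. By FPKM the exceptions were Nr1h3 in pairs 1 and 2, Maf in pair 2 and Spic in pair 4, where KO was the higher. Without pairing, no factor passed the test. With the replicate number as a block, 4 of the 9 fell in KO: Cebpb, Id1, Id3 and Spic. Cebpb was at 37.5 ± 12.9 FPKM in KO and 63.8 ± 14.98 FPKM in WT, Id1 at 50.2 ± 18.4 FPKM in KO and 82.0 ± 14.5 FPKM in WT, Id3 at 110 ± 21.1 FPKM in KO and 158 ± 33.4 FPKM in WT, and Spic at 37.1 ± 5.93 FPKM in KO and 49.2 ± 4.19 FPKM in WT (SD, n = 4 each).

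The unpaired test was edgeR's quasi-likelihood test on counts, 2-sided, with Benjamini-Hochberg adjustment over all 15870 genes and a threshold of 0.05. It called 0 of 9 factors, where 0.0063% of all tested genes passed in either direction, a share made up of Vsig4 alone, and DESeq2 and limma also called 0 of 9. At an unadjusted p under 0.05, 5 of 9 factors were lower in KO, against 4.56% of all tested genes in that direction, and none was higher. With the block, 4 of 9 factors fell, against 5.01% of all tested genes, and 8.98% of genes rose. The block rests on the pairing, which was read from these data and was not set against other ways to pair the libraries. The calls depended on single pairs: 1 factor, Id1, passed without pair 1, none without pair 2 or pair 3, and 4 without pair 4. Lower CPM in 4 of 4 pairs was found for 19.6% of all tested genes. The median log2 fold change over all tested genes was -0.0028.

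**Figure D1:**
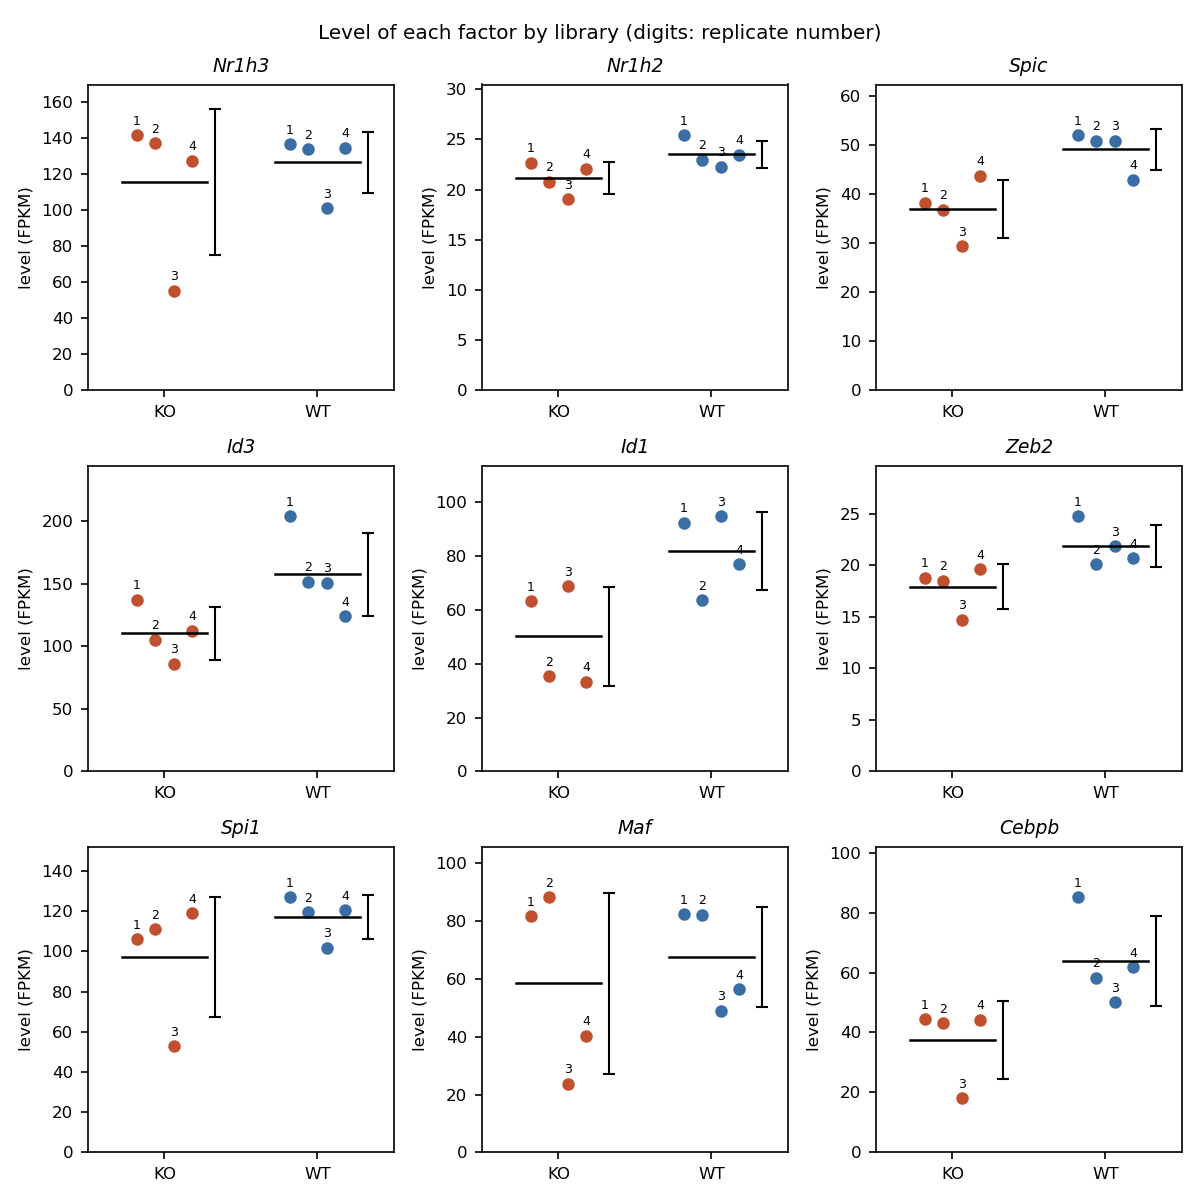
Level of each of the 9 factors in FPKM (linear axis from 0) in the 4 KO libraries (left) and the 4 WT libraries (right); digits are replicate numbers, horizontal lines group means and bars SDs. KO 3 was the lowest KO library for every factor but Id1, whose lowest value, 33.4 FPKM, was in KO 4.

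In order of mean level per exon length, the factors ran Nr1h3, Id3, Spi1, Maf, Id1, Cebpb, Spic, Nr1h2 and Zeb2 in KO, and Id3, Nr1h3, Spi1, Id1, Maf, Cebpb, Spic, Nr1h2 and Zeb2 in WT. The means spanned 17.9 to 115 FPKM in KO and 21.9 to 158 FPKM in WT. Most neighbours in these orders overlapped in their libraries: the ranges were separate only between Spic and Nr1h2 in both genotypes, and between Spi1 and Id1 in WT. Of the highest factors, Id3 thus led in WT and Nr1h3 in KO, but the ranges of this pair overlapped in each genotype. By FPKM the lowest percentile among tested genes that any of the 9 reached in a library was 76.9, for Zeb2.

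The LXR receptors Nr1h3 (LXRα) and Nr1h2 (LXRβ) bind DNA as partners of RXR and switch on cholesterol efflux genes when oxysterols are bound. Nr1h3, on chromosome 2 (bases 91014406 to 91033179 of the minus strand; all gene positions are as deposited, on a build the table does not name), had 141, 137, 55.2 and 127 FPKM in KO 1 to 4, against 136, 134, 101 and 135 FPKM in WT 1 to 4. Apart from KO 3 the KO libraries lay within or above the WT range, and the log2 fold change was -0.22 ± 0.302 (edgeR adjusted p = 0.695) and 0.018 without KO 3. Nr1h2, on chromosome 7 (44199040 to 44203375, minus strand), was the steadiest factor, with 22.7, 20.8, 19.0 and 22.1 FPKM in KO 1 to 4, against 25.4, 23.0, 22.3 and 23.5 FPKM in WT 1 to 4. Its ranges overlapped only narrowly, and the log2 fold change was -0.24 ± 0.113 (edgeR adjusted p = 0.492, and adjusted p = 0.0758 with the block).

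Nr1h3 transcripts outnumbered those of Nr1h2 per exon length by 5.37 ± 1.68 times in KO and 5.36 ± 0.584 times in WT. The ratio was 6.23, 6.60, 2.90 and 5.76 in KO 1 to 4, against 5.37, 5.82, 4.54 and 5.73 in WT 1 to 4. KO 3 stood apart, and the log2 ratio differed by -0.060 ± 0.288 between genotypes (exact permutation test, 2-sided, p = 0.971, and adjusted p = 0.971 over 3 ratios), or by 0.21 without KO 3. The smallest p that 4 libraries against 4 can give in this test is 0.0286.

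LXR targets were followed in a list of 15 genes, 13 of them tested. None was called without the block; with it 5 fell and 1 rose, and 10 of 13 had lower values in KO. The list's median log2 fold change was -0.44, against -0.62 for the 10 Kupffer effector markers, which share Cd5l with it. Abcg1, a cholesterol exporter, was at 21.2 ± 8.03 FPKM in KO and 26.97 ± 7.11 FPKM in WT, and Apoe, the apolipoprotein that takes up effluxed cholesterol, at 2914 ± 886 FPKM in KO and 4240 ± 858 FPKM in WT. Both passed with the block (edgeR adjusted p = 0.0490 for Abcg1 and 0.0489 for Apoe), as did Apoc1, Smpdl3a and Arl4c, while the desaturase gene Scd2 rose, at 93.4 ± 43.0 FPKM in KO and 48.8 ± 23.0 FPKM in WT (blocked log2 fold change 0.88 ± 0.164, edgeR adjusted p = 0.0256). Cd5l, a target of Nr1h3 in mouse macrophages, had 2240 ± 904 FPKM in KO and 3183 ± 847 FPKM in WT (edgeR adjusted p = 0.0553 with the block). Among the 9 partners and coregulators only Rxra, the main RXR partner, fell with the block (48.8 ± 15.6 FPKM in KO and 64.6 ± 16.5 FPKM in WT; edgeR adjusted p = 0.0439). When the mean log2 CPM of the melanoma markers was a covariate, the median log2 fold change of the LXR targets was -0.067, and the log2 fold change was 0.28 for Scd2 and -0.045 for Rxra. Melanoma RNA moved with these values, and its part in them was not tested further.

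Spi1 (PU.1), the ETS factor that macrophage development requires, and its relative Spic (SPI-C) bind similar DNA. Spic, on chromosome 10 (88510634 to 88520877, minus strand), had 38.3, 36.9, 29.4 and 43.8 FPKM in KO 1 to 4, against 52.0, 50.98, 50.9 and 43.0 FPKM in WT 1 to 4. WT libraries 1 to 3 lay above every KO library and WT 4 was the exception, just below KO 4. The log2 fold change was -0.50 ± 0.154 (edgeR unadjusted p = 0.0108, adjusted p = 0.492), and with the block -0.51 ± 0.135 (adjusted p = 0.0460). Spi1, on chromosome 2 (90912735 to 90946101, plus strand), had 106, 111, 53.0 and 119 FPKM in KO 1 to 4, against 127, 120, 102 and 120 FPKM in WT 1 to 4. The genotypes overlapped, KO 3 lay far below the other 7 libraries, and the log2 fold change was -0.36 ± 0.256 (edgeR adjusted p = 0.511, and adjusted p = 0.105 with the block) and -0.15 without KO 3. Spic was at 0.404 ± 0.102 of the Spi1 level in KO and 0.423 ± 0.0593 in WT, a log2 difference of -0.088 ± 0.194 (exact permutation p = 0.657, adjusted p = 0.971 over 3 ratios), or of -0.25 without KO 3.

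The promoters of the factors were read to set their sequence beside these changes. RefSeq promoter windows on GRCm38.p6, from 250 bases before to 50 bases after the start site, were available for 6 of the 9 factors, and Id1, Spi1 and Maf had none. The following 4 are shown 5′ to 3′ because Spic, Id3 and Cebpb fell with the block and Nr1h3 had overlapping genotypes. Capitals mark AGGAAGT (read as ACTTCCT on the opposite strand), which is only a particular form of the core of ETS sites. They also mark GGCGCC, which is an element known from BMP-responsive genes, and TATAAA, the TATA box. Apart from the longer PU.1 word named below, other forms of the ETS core were not searched. Windows without AGGAAGT may therefore still hold an ETS core.
Spic (chr10:88682974-88683273, minus strand): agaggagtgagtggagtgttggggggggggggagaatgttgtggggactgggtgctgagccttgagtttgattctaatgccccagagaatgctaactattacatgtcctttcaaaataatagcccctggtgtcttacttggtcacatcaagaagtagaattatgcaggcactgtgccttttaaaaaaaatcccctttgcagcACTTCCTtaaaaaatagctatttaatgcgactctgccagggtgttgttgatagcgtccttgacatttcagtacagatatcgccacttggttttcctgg
Id3 (chr4:136143572-136143871, plus strand): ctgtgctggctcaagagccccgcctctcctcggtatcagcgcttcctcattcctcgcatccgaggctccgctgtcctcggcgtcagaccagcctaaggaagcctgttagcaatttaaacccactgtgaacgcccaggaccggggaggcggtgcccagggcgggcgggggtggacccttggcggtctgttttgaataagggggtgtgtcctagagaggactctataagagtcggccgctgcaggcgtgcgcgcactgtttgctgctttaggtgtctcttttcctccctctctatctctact
Cebpb (chr2:167688665-167688964, plus strand): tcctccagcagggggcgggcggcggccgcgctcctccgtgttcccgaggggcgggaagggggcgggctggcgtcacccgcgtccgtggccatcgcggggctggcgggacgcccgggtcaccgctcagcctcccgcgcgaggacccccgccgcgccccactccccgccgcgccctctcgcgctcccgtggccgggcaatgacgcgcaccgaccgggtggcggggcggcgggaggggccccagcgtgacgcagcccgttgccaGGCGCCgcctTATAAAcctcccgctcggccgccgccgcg
Nr1h3 (chr2:91195067-91195366, minus strand): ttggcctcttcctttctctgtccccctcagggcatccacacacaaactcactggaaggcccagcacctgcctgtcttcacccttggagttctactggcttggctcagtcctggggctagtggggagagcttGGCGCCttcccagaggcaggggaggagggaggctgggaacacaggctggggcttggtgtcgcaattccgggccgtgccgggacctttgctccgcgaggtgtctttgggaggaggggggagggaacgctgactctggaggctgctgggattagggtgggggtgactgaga
The Spic window held AGGAAGT on the reverse strand, beginning 48 bases before the start site, a word found in 9.35% of 32851 promoter windows of the same 300 bases. GGCGCC was in the windows of Nr1h3, Nr1h2 and Cebpb (11.9% of windows), and TATAAA in that of Cebpb (13.6% of windows), each counted on both strands. Nr1h3 had 2 overlapping windows, of which 1 is shown, and Zeb2 had 4. A factor was counted if any of its windows held the word, while the shares are of single windows. In the Cebpb window both words began after the start site, GGCGCC at base 12 and TATAAA at base 22. The longer PU.1 word GAGGAAGT, which contains AGGAAGT, was in none of the 6 factors' windows (3.2% of windows), nor were AGGTCA, a nuclear receptor half-site (16.3%), TGACGTCA (1.79%), TTGCGCAA, a C/EBP palindrome (0.183%), or CACGTG, an E-box (7.15%). Among factors that fell with the block, Spic carried AGGAAGT, Cebpb GGCGCC and TATAAA, and Id3 none of the words searched. Among the others with a window, Nr1h3 and Nr1h2 carried GGCGCC and Zeb2 none. Any tie between these words and the changes was not tested. These are matches of letters in a window and not measured sites.

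Genes known as targets of PU.1 were followed in a list of 9. All 9 had lower values in KO, and 5 fell with the block and none without it (median log2 fold change -0.50). All 10 Kupffer effector markers likewise had lower values in KO, and 6 fell with the block (median log2 fold change -0.62). Adgre1 is in both lists. Lower values in KO were thus seen in Kupffer markers as well as in PU.1 targets, against 50.4% of all tested genes. Whether any part of the fall was particular to PU.1 targets was not tested. Csf1r, the receptor for the macrophage growth factor CSF-1, was at 415 ± 161 FPKM in KO and 605 ± 185 FPKM in WT (edgeR adjusted p = 0.0410 with the block), and Tyrobp, a signalling adaptor, at 546 ± 215 FPKM in KO and 726 ± 148 FPKM in WT (adjusted p = 0.0451 with the block). Cybb, Fcgr1 and Adgre1 were the other targets called with the block. In the list around SPI-C and heme none of 5 genes passed with or without the block, and 4 of 5 had lower values in KO. The exception was Vcam1, an adhesion receptor, at 120 ± 61.3 FPKM in KO and 108 ± 19.5 FPKM in WT. Slc40a1, the iron exporter ferroportin, was at 323 ± 123 FPKM in KO and 450 ± 115 FPKM in WT (edgeR adjusted p = 0.0540 with the block), and Hmox1, heme oxygenase, at 520 ± 198 FPKM in KO and 658 ± 180 FPKM in WT (adjusted p = 0.0680 with the block). With the melanoma covariate the medians were -0.069 for the PU.1 targets and 0.012 for the SPI-C list.

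Id3 and Id1 encode proteins without a DNA-binding region that capture E proteins and so block them. Id3, on chromosome 4 (135870808 to 135873066, plus strand), had 137, 105, 86.2 and 113 FPKM in KO 1 to 4, against 204, 152, 151 and 124 FPKM in WT 1 to 4. Only KO 1 rose above the lowest WT library, WT 4. The log2 fold change was -0.61 ± 0.222 (edgeR unadjusted p = 0.0239, adjusted p = 0.492), and with the block -0.60 ± 0.123 (adjusted p = 0.0284). Id1, on chromosome 2 (152578171 to 152579330, plus strand), had 63.2, 35.3, 68.7 and 33.4 FPKM in KO 1 to 4, against 92.5, 63.6, 94.7 and 77.1 FPKM in WT 1 to 4. The KO libraries fell into a higher pair, KO 1 and KO 3, and a lower pair, KO 2 and KO 4, and of these only KO 3 exceeded the lowest WT library, WT 2. The log2 fold change was -0.79 ± 0.263 (edgeR unadjusted p = 0.0155, adjusted p = 0.492), and with the block -0.85 ± 0.132 (adjusted p = 0.0254).

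Id1 differed from the other factors in how it varied. Over the 8 libraries its log2 CPM had Pearson r of 0.207 with the Kupffer sum, while the other 8 factors had r of 0.838 to 0.960, and r of -0.369 with the melanoma sum, while the others had r of -0.895 to -0.687; these are descriptions over libraries that share depth and composition. Its log2 fold change moved least of the 9 with the melanoma covariate, to -0.82, and it was -0.96 without KO 3. Id3 outnumbered Id1 per exon length by 2.44 ± 0.937 times in KO and 1.95 ± 0.407 times in WT. The ratio was 2.17, 2.98, 1.25 and 3.37 in KO 1 to 4, against 2.21, 2.38, 1.59 and 1.61 in WT 1 to 4, so KO held both the highest and the lowest value (log2 difference 0.26 ± 0.353, exact permutation p = 0.514, adjusted p = 0.971 over 3 ratios). The log2 difference was 0.55 without KO 3 and 0.070 without KO 4.

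The genes most like Id1 over the libraries were Fos (r = 0.987) and Ier2 (r = 0.978), immediate early genes known to respond to tissue handling. Fos was at 332 FPKM in KO and 509 FPKM in WT on average, and Ier2 at 53.3 FPKM in KO and 69.9 FPKM in WT; their part in the Id1 values was not tested. For Id3 the most alike were Esam (r = 0.992), at 0.410 FPKM in KO and 1.18 FPKM in WT, and Calcrl (r = 0.991), at 2.34 FPKM in KO and 3.85 FPKM in WT, both known from endothelial cells. The 8 endothelial markers summed to 263 to 614 CPM in KO and 476 to 803 CPM in WT, none was at 0 in all libraries, and 4 of 8 were lower with the block. Their part in the Id3 values was not tested.

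Genes of the BMP and SMAD axis, a list of 20 of which 19 were tested, moved in no common direction. With the block 4 fell and 2 rose, without it none passed, and 12 of 19 had lower values in KO (median log2 fold change -0.17). The ligand genes Bmp2 and Bmp6 and the receptor genes Acvrl1 and Tgfbr2 fell, and the signal transducers Smad5 and Smad3 rose. Bmp6 was scarce, at 0.165 ± 0.115 FPKM in KO and 0.475 ± 0.133 FPKM in WT, and Acvrl1, which is the receptor ALK1, was at 21.2 ± 3.87 FPKM in KO and 24.9 ± 5.18 FPKM in WT. Smad5 was at 19.5 ± 9.28 FPKM in KO and 12.3 ± 5.23 FPKM in WT, and Smad3 at 6.02 ± 1.11 FPKM in KO and 4.33 ± 0.535 FPKM in WT. Tgfbr1, the most abundant gene of the list, was at 28.9 ± 4.49 FPKM in KO and 26.7 ± 5.82 FPKM in WT (edgeR adjusted p = 0.857 with the block). With the melanoma covariate the log2 fold changes were 0.62 for Bmp2, -1.09 for Bmp6, 0.035 for Acvrl1, 0.016 for Tgfbr2, -0.017 for Smad5 and 0.26 for Smad3.

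Among the related ID genes and the E proteins that they capture, a list of 5, 1 gene fell and 1 rose with the block. Tcf12, an E protein gene, was at 9.23 ± 4.57 FPKM in KO and 5.56 ± 2.75 FPKM in WT (blocked log2 fold change 0.66 ± 0.124, edgeR adjusted p = 0.0257), and Tcf4, another, at 2.53 ± 0.351 FPKM in KO and 3.04 ± 0.465 FPKM in WT (-0.35 ± 0.0904, adjusted p = 0.0439). With the melanoma covariate the log2 fold change was 0.012 for Tcf12 and -0.064 for Tcf4. Tcf3, the most abundant E protein gene, was at 13.2 ± 0.660 FPKM in KO and 12.9 ± 1.63 FPKM in WT. Id2 was more abundant than Id1, at 148 ± 33.6 FPKM in KO and 175 ± 24.9 FPKM in WT (edgeR adjusted p = 0.0557 with the block).

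Zeb2, a zinc finger repressor needed to keep tissue macrophage identity, Maf, a bZIP factor of resident macrophages, and Cebpb, the C/EBP factor of macrophage activation, complete the set. Zeb2, on chromosome 2 (44873644 to 45007407, minus strand), had 18.8, 18.5, 14.7 and 19.6 FPKM in KO 1 to 4, against 24.8, 20.1, 21.9 and 20.7 FPKM in WT 1 to 4. The genotypes did not overlap, although KO 4 and WT 2 lay close together. The log2 fold change was -0.38 ± 0.152 (edgeR unadjusted p = 0.0365, adjusted p = 0.492, and adjusted p = 0.0626 with the block). Zeb2os, an antisense transcript with 305 to 741 counts, overlaps Zeb2 on the other strand, and the strand setting of the counting is not given, so the level of Zeb2 is uncertain.

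Cebpb, on chromosome 2 (167530835 to 167532338, plus strand), had 44.4, 43.1, 18.1 and 44.2 FPKM in KO 1 to 4, against 85.0, 58.3, 50.1 and 61.8 FPKM in WT 1 to 4. Every WT library was above every KO library, 3 KO libraries were nearly equal, and KO 3 was far below them. The log2 fold change, -0.86 ± 0.315, was the largest of the 9 in size (edgeR unadjusted p = 0.0244, adjusted p = 0.492), and with the block it was -0.91 ± 0.165 (adjusted p = 0.0254). Without KO 3 it was -0.62 and with the melanoma covariate -0.52. Peds1 overlaps Cebpb on the other strand with 799 to 1225 counts, against 463 to 1952 counts of Cebpb itself, so reads of this pair may not be told apart.

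Maf, on chromosome 8 (116409681 to 116434533, minus strand), was the most variable factor in KO, with 81.7, 88.2, 23.7 and 40.4 FPKM in KO 1 to 4, against 82.5, 82.3, 49.0 and 56.5 FPKM in WT 1 to 4. Libraries 1 and 2 were high and libraries 3 and 4 low in both genotypes, and the ranges overlapped. The log2 fold change was -0.29 ± 0.439 (edgeR adjusted p = 0.718, and adjusted p = 0.131 with the block), but it was -0.031 without KO 3 and 0.23 with the melanoma covariate.

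Of 15 other lineage factors of macrophages, 2 fell and 1 rose with the block, and none passed without it (median log2 fold change -0.26). Cebpa, a relative of Cebpb, was at 62.9 ± 17.4 FPKM in KO and 87.1 ± 9.70 FPKM in WT and did not pass (edgeR adjusted p = 0.0529 with the block). Cebpd fell with the block, at 3.64 ± 1.05 FPKM in KO and 5.45 ± 0.547 FPKM in WT, as did Fli1, an ETS factor, while Bhlhe41 rose, at 8.38 ± 6.57 FPKM in KO and 3.73 ± 3.74 FPKM in WT. With the melanoma covariate the log2 fold changes were -0.51 for Cebpd, -0.070 for Fli1 and 3.8e-05 for Bhlhe41. Of the factors of other tissue macrophages, Pparg, of alveolar macrophages, was at 4.63 ± 1.12 FPKM in KO and 4.27 ± 0.816 FPKM in WT (edgeR adjusted p = 0.955 with the block). Gata6, of peritoneal macrophages, was at 0.0575 ± 0.0629 FPKM in KO and 0.183 ± 0.0479 FPKM in WT, and Sall3 had 0 counts in every library.

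**Figure D2:**
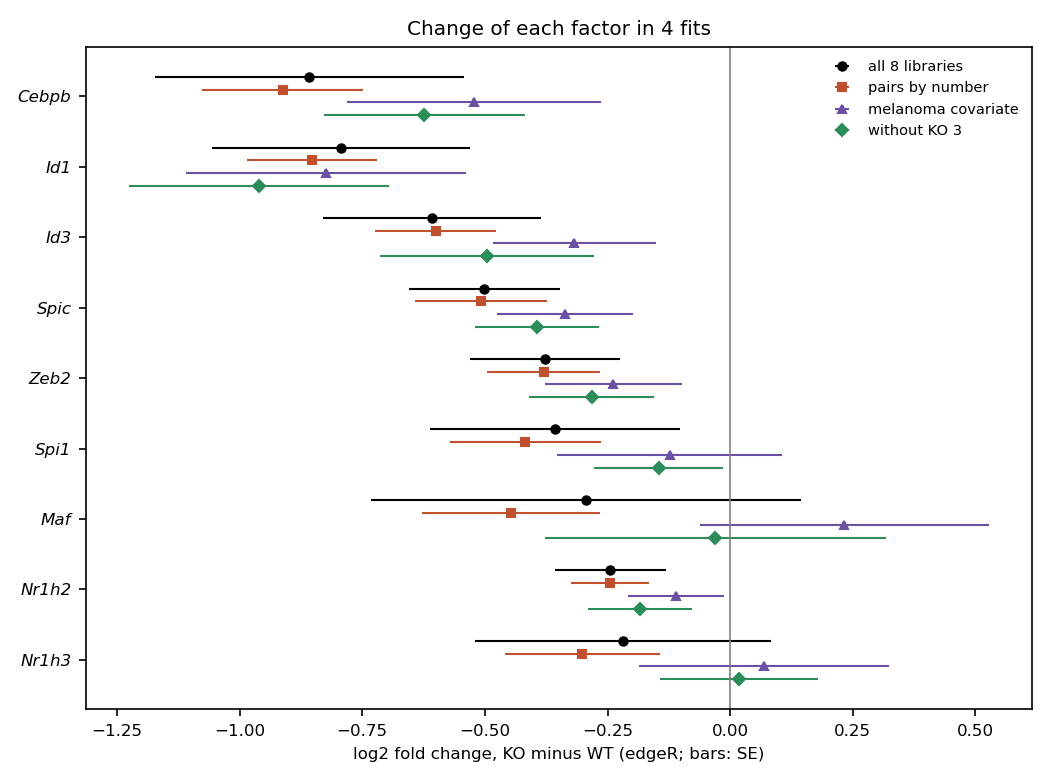
Log2 fold change, KO minus WT, of each factor in 4 edgeR fits: all 8 libraries, pairs by replicate number, the melanoma markers as a covariate, and without KO 3; bars are SEs and the vertical line marks 0. Cebpb, Id1, Id3, Spic, Zeb2, Nr1h2 and Spi1 stayed below 0 in the 4 fits, while Maf reached 0.23 and Nr1h3 0.069 with the covariate.

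By TMM-scaled CPM, the KO libraries lay below all WT libraries for Spic, Id1, Zeb2 and Cebpb, which is 4 of 9, against 2.85% of tested genes. By FPKM this held for 2 of 9, Zeb2 and Cebpb, against 1.92% of tested genes. With the melanoma covariate all 9 log2 fold changes moved toward 0 or past it except that of Id1: they were -0.52 for Cebpb, -0.82 for Id1, -0.34 for Spic, -0.32 for Id3, -0.24 for Zeb2, -0.12 for Spi1, -0.11 for Nr1h2, 0.069 for Nr1h3 and 0.23 for Maf, and none passed. In bulk libraries fewer Kupffer cells and less of a transcript per Kupffer cell cannot be told apart.

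Each factor was therefore also set against the Kupffer effector markers of its own library, as CPM per 1000 CPM of their sum. On that scale no factor was lower in KO without overlap, 0 of 9, against 0.145% of tested genes, and 6.49% of tested genes were higher in KO without overlap. Nr1h3 was at 17.9, 17.3, 20.6 and 19.7 in KO 1 to 4, against 12.6, 12.4, 14.96 and 17.4 in WT 1 to 4. The genotypes overlapped by 1 library, with WT 4 just above KO 2, and the mean was 18.9 ± 1.54 in KO and 14.3 ± 2.36 in WT. Without Cd5l, which is itself a target of Nr1h3, in the sum, all KO libraries lay above all WT libraries. The share of all tested genes that separate on that changed scale was not computed, so this is not read as particular to Nr1h3. Nr1h2, Zeb2 and Spi1 were also higher per Kupffer transcript in KO in 4 of 4 pairs, as Nr1h3 was, but so were 71.5% of all tested genes, and the Kupffer sum itself was lower in KO in 4 of 4 pairs.

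Of the factors called with the block, Cebpb had a lower mean in KO, at 3.69 ± 0.443 in KO and 4.29 ± 0.716 in WT, and it was lower in 3 of 4 pairs. Id1 was also lower in 3 of 4 pairs, at 3.69, 2.05, 11.8 and 2.39 in KO 1 to 4, against 3.93, 2.72, 6.47 and 4.60 in WT 1 to 4, with KO 3 highest of all. Spic was at 10.4 ± 4.48 in KO and 8.64 ± 2.0 in WT, and Id3 at 14.3 ± 5.90 in KO and 12.7 ± 2.56 in WT. Spic was higher in KO in 3 of 4 pairs, and Id3 in 2 of 4. With KO 3 alone left out, the KO means were 2.71 for Id1, against 4.43 in WT, 8.29 for Spic and 11.4 for Id3. Each was then below its WT mean, and the KO mean of Cebpb was 3.57. These WT means still held WT 3, which had the highest WT values of Id1 (6.47), Spic (11.5) and Id3 (15.9). Means without both libraries of that number were not computed. Maf, at 30.0 ± 7.00 in KO and 24.4 ± 0.640 in WT, was nearly constant over the WT libraries.

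**Figure D3:**
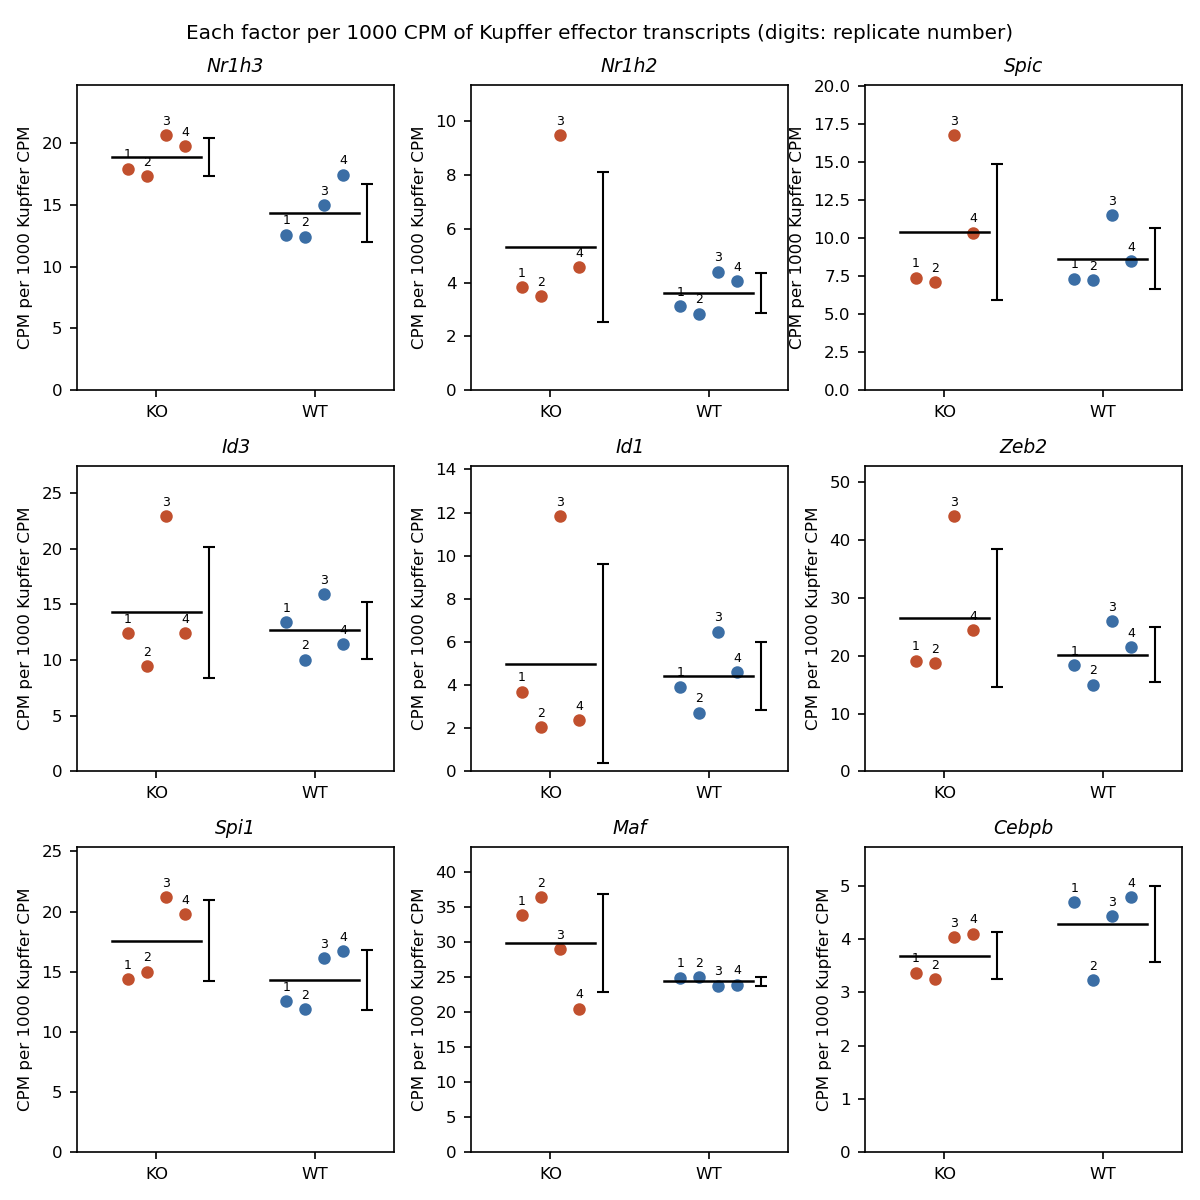
CPM of each factor per 1000 CPM of the 10 Kupffer effector markers (linear axis from 0) in the 4 KO libraries (left) and the 4 WT libraries (right), with group means and SDs. KO 3 was the highest library for every factor except Maf and Cebpb, with 11.8 for Id1, and the Nr1h3 values of the genotypes overlapped only between KO 2 and WT 4.

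The factors differed in how they stood in KO 3. Its Kupffer sum was 0.345 of the mean of the other KO libraries. Nr1h3, Spi1, Cebpb and Maf kept close to that sum, at 1.12, 1.29, 1.13 and 0.957 times the other KO libraries per Kupffer transcript. Id1 was at 4.36 times, Nr1h2 at 2.39, Zeb2 at 2.12, Spic at 2.02 and Id3 at 2.0. Melanoma RNA was highest in the same library, and its part in these values was not tested. Transcripts of other cell types were also present, and their part in the values of the factors was not tested. Hepatocyte markers summed to 177 to 711 CPM in KO and 419 to 1875 CPM in WT, and monocyte markers to 186 to 242 CPM in KO and 157 to 220 CPM in WT. Dendritic cell markers summed to 151 to 272 CPM in KO and 181 to 292 CPM in WT, and T cell markers to 30.3 to 132 CPM in KO and 43.5 to 137 CPM in WT. Neutrophil markers summed to 37.0 to 86.7 CPM in KO and 40.9 to 81.9 CPM in WT, and B cell markers to 18.1 to 45.3 CPM in KO and 28.5 to 39.9 CPM in WT. The stellate cell markers were separate between genotypes, at 31.4 to 46.0 CPM in KO and 66.7 to 167 CPM in WT, and no list had all its genes at 0.

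**Figure D4:**
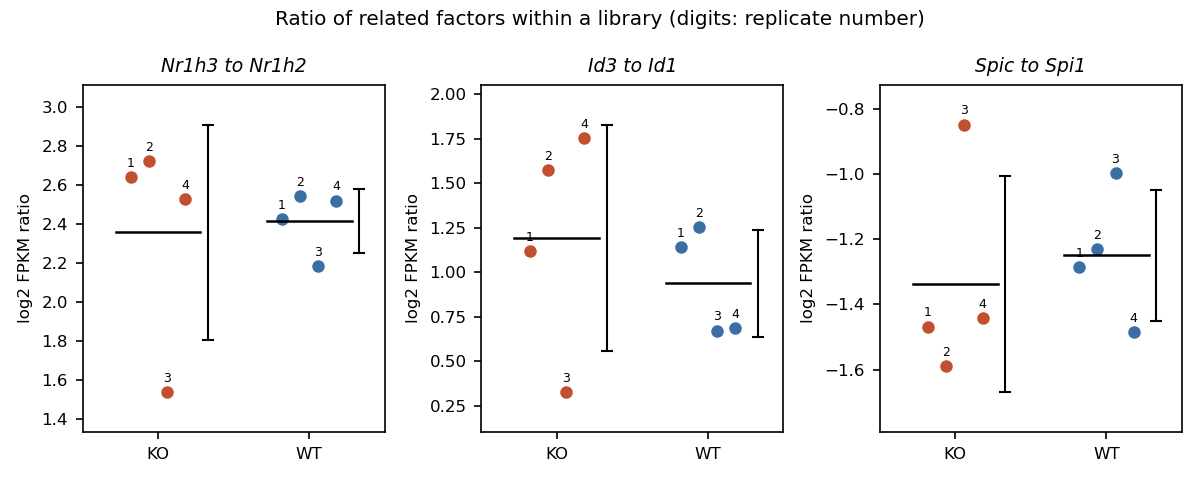
Log2 ratio of FPKM within a library for Nr1h3 to Nr1h2, Id3 to Id1 and Spic to Spi1, in the 4 KO libraries (left) and the 4 WT libraries (right), with group means and SDs; axes do not start at 0. KO 3 was lowest for Nr1h3 to Nr1h2 (1.54) and for Id3 to Id1 (0.33), and highest for Spic to Spi1 (-0.85).

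Factors also varied together across libraries. Nr1h3 and Spi1 had Pearson r of 0.966 in log2 CPM over the 8 libraries, and Zeb2 and Cebpb 0.971, while Id1 had r of -0.032 with Nr1h3 and 0.061 with Spi1. Spi1 and Nr1h3 are near neighbours, with 68304 bases between them on chromosome 2 in the deposited coordinates and Madd and Mybpc3 in the gap. Madd averaged 22.8 FPKM in KO and 25.6 FPKM in WT, and Mybpc3 0.745 FPKM in KO and 0.975 FPKM in WT. Outside the set, the genes most like each factor over 8 libraries were Fkbp15 and Cyba for Nr1h3 (both r = 0.993), Ucp2 (r = 0.996) and Me2 (r = 0.993) for Spi1, Hlcs (r = 0.992) and Gm47567 (r = 0.987) for Spic, Trf (r = 0.988) and Slc22a17 (r = 0.984) for Zeb2, Ttc32 (r = 0.995) and C5ar2 (r = 0.994) for Maf, Fyco1 (r = 0.993) and H2aj (r = 0.987) for Cebpb, and Tnfrsf23 and Gm10802 (both r = 0.989) for Nr1h2. Many genes share the gradient of Kupffer and melanoma RNA in these libraries, so such values are high for many pairs.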

How the data were processed

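Per the labels' protocols, livers with metastases were digested enzymatically, cells were sorted, and a VAHTS Universal V8 kit made the libraries. The submitters' processing notes name HTSeq 0.6.1 and mm10; the aligner, the strand setting and the annotation were not given in the sources used here. The deposited table holds raw counts for each gene, per the file headers, beside FPKM values by the authors, which matched count over exonic size and column total within 0.0051 for 100% of genes in each library. Its column letters were read as K for KO and C for WT, by the titles' numbers. Exonic sizes and positions were also deposited.

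Counts were filtered by filterByExpr (15870 genes), scaled by TMM and compared by the quasi-likelihood test of edgeR 4.0.16 in R 4.3.3 with Benjamini-Hochberg adjustment; the biological coefficient of variation was 33.3%. The scripts were tested on simulated data. DESeq2 1.42.0, limma 3.58.1 on log2(FPKM + 1) and log2(FPKM + 0.1), RLE scaling, no filter, a melanoma covariate, the replicate block and left-out libraries were alternatives. Ratios used exact permutation (70 splits; SciPy 1.17.1). The factors and gene lists were chosen with earlier results of these data known. All 9 factors and Vsig4 were named, and from each list, since none passed, the 2 most expressed genes; other list genes were named because they passed with the block. A gene that this rule names is not reported here. Likeness is Pearson r of log2 CPM. Genotypes share the numbers 1 to 4: deviations from genotype means correlated within numbers at 0.561, 0.544, 0.660 and 0.290, each over 0.1, and same-numbered libraries were therefore treated as pairs. That pairing comes from the data, not from the labels, and libraries 1 and 2 had less melanoma RNA than 3 and 4 in both genotypes. Correlations between libraries of different numbers were not computed. The values therefore cannot show that libraries with the same number are more alike than others. Promoter sequences are from RefSeq on GRCm38.p6, whose coordinates differ from the deposited ones. Depth limits counting precision little here, since every factor had at least 463 counts.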

Additional observations from a re-analysis of the deposited data

Results flagged for a closer look

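Of 24 groups of 4 libraries tested (9 factors and 3 ratios in each genotype), 4 held a library far from the other 3, and all 4 were KO 3. Chance marks about 1 in 20 groups when each is taken alone. The factors varied together over the libraries and the ratios were built from them, so the groups were not independent. The count of 4 therefore cannot be judged against that rate. Zeb2 was at 279.3 CPM in KO 3, and its gap to the nearest KO library was 0.872 of the KO range. Spi1 was at 134 CPM in KO 3, with a gap of 0.932 of the range. Cebpb was at 25.57 CPM in KO 3, with a gap of 0.872 of the range. The log2 ratio of Nr1h3 to Nr1h2 was 1.54 in KO 3, with a gap of 0.835 of the range. All 4 values come from the same library.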

How the results depend on the processing

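Each factor's log2 fold change was recomputed under 16 alternatives. Cebpb, Id1, Id3, Spic, Zeb2 and Nr1h2 kept a negative sign in all 16. Nr1h3 reversed to 0.069 with the melanoma covariate and 0.21 without WT 1, WT 2 and KO 3 together, and it ran from -0.36 to 0.018 with 1 library left out, the highest being without KO 3. Maf reversed to 0.23 with the covariate and 0.43 without those 3 libraries, and Spi1 to 0.015 without them. The Nr1h3 to Nr1h2 log2 ratio reversed to 0.21 without KO 3 and to 0.28 without the 3 libraries, and its values with 1 library left out ran from -0.18 to 0.21. Leaving out 1 library moved the Id3 to Id1 log2 ratio between 0.070 and 0.55 and the Spic to Spi1 log2 ratio between -0.25 and -0.0036, and without the 3 libraries they were 0.80 and -0.26. The cause was not tested. With the replicate block, 1425 genes were higher and 795 lower in KO, and 4 factors were lower, against 0, 1 and 0 without it; the block changed the call of no factor other than Cebpb, Id1, Id3 and Spic, and the paired ratios gave sign-flip p no lower than 0.625, where 0.125 is the smallest possible. Leaving out pairs, chosen after seeing the data, gave 0 to 1475 higher genes (43, 1, 0 and 1475 without pairs 1 to 4), 1 to 754 lower genes (164, 1, 1 and 754) and 0 to 4 lower factors (1, 0, 0 and 4). DESeq2 called 30 genes higher and 32 lower and none of the factors; without the filter 1 gene was higher, and with 1 library left out 0 to 1 were higher (1 without KO 2 and 1 without KO 3). Adjusted p over the 16 alternatives ran from 0.0254 to 0.937 for Cebpb and Id1.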
